A study of Mus musculus with 8 samples.

Results

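Cycling T and NK lymphocytes of tumour-bearing mouse liver were taken as the droplet barcodes that carried RNA of the mitotic programme together with RNA of the T cell receptor complex or of NK receptors. A barcode was a member when it held at least 1 UMI (a unique molecular identifier, so 1 counted mRNA molecule) in at least 3 of the 6 genes Mki67, Top2a, Birc5, Ube2c, Nusap1 and Cenpf, at least 1 UMI in any of Cd3d, Cd3e, Cd3g, Ncr1 and Klrb1c, and none in Cd79a, Lyz2 or C1qa. Of 21482 barcodes with at least 500 gene UMIs, at least 300 genes and at most 20% mitochondrial UMIs, 783 were members, 254 in knockout and 529 in control libraries. They were chosen by these 14 genes, so the levels of those genes, and any contrast of members with other barcodes, describe the choice. Calls in that contrast are counted as a description, and no support is drawn from them.

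Lymphocytes divide when antigen receptors, activating NK receptors or cytokines such as IL-2 and IL-15 drive them out of quiescence. E2F factors then switch on the enzymes of nucleotide supply and DNA replication, histone genes are transcribed in S phase, and the genes of the mitotic spindle and of chromosome segregation follow in G2 under the complex of MuvB, B-Myb and FOXM1. In the liver such cells can be CD8 T cells, CD4 T cells, regulatory T cells, gamma delta T cells or NK cells, which kill with perforin and granzymes.

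The knockout group was Ncr1iCre Nr4a1fl/fl mice, in which Cre is made from the Ncr1 locus of NK cells and related innate lymphocytes and removes floxed Nr4a1, the gene of the nuclear receptor Nur77. The control group was Ncr1WT Nr4a1fl/fl mice, which carry the same floxed allele and no Cre. Male C57BL/6 animals aged 8 to 10 weeks received by hydrodynamic tail vein injection 30 µg of plasmid that made Cas9 with a guide RNA against Trp53, c-Myc on a transposon and the SB13 transposase, and livers were taken 4 to 5 weeks later. There were 3 libraries in each group, and those numbered 3 pooled 2 knockout and 3 control mice marked by hashtags, while the labels do not say which animals lie behind the libraries numbered 1 and 2, so that p-values measure the spread between these libraries.

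The files held 34369055, 4232577 and 88186316 gene UMIs in knockout libraries 1, 2 and 3, and 44326754, 4126740 and 122609032 in control libraries 1, 2 and 3. Those of the libraries numbered 3 listed 1715660 knockout and 2207809 control barcodes, of which 8778 and 17415 had at least 500 gene UMIs. The other 4 files listed 1021 to 4592 barcodes, all with at least 500 gene UMIs. The files were thus not limited to the same kind of barcode before the filters used here. The part of this in differences between libraries was not tested. The libraries numbered 2 stood apart: the median mitochondrial share of their barcodes with at least 500 UMIs was 75.1% in the knockout and 27.9% in the control library, against 6.68% to 10.0% in the other 4. Only 4 members came from knockout library 2 and 7 from control library 2, beside 94 and 156 from knockout libraries 1 and 3 and 106 and 416 from control libraries 1 and 3. Any pair of libraries shared between 0 and 15 barcodes. The 3′ reads of Nr4a1 do not show whether the floxed part was removed, so they do not check the labels.

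The label held for most members and not for all. The UMIs of 32 T and NK genes were summed, which are the T cell and NK cell lists used below without Tyrobp, Fcer1g and Fcgr3. By this sum 631 members had at least 10 per 10000 UMIs, with a median of 86.6, and are called T and NK RNA-rich below. Ptprc, which encodes the leukocyte antigen CD45, was found in 98.1% of them, 580 held at least 2 of the 5 T and NK genes of the choice, and 404 held Cd3 genes alone, 117 Ncr1 or Klrb1c alone and 110 both kinds. The remaining 152 members, 19.4% of the 783, went against the label. Their median was 0.54 T and NK UMIs per 10000, only 44.1% had a Ptprc UMI, and 74.3% owed their place to a single T or NK UMI, against 5.07% of the RNA-rich members. They were the deepest barcodes, with a median of 95539 UMIs against 12625, they carried a median of 1.77% UMIs of 20 hepatocyte genes, and they held 60.8% of all UMIs of the members. Of 1252 barcodes that met the cycle criterion and had at least 1% hepatocyte UMIs, 17.4% had a T or NK UMI. These 152 barcodes therefore bear no lymphocyte name here, and results are given mainly for the 631 RNA-rich members, a restriction added after the data were seen, with values over all 783 where stated. The threshold of 10 crosses a sparse stretch, with 20 members between 5 and 20 per 10000.

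**Figure D1:**
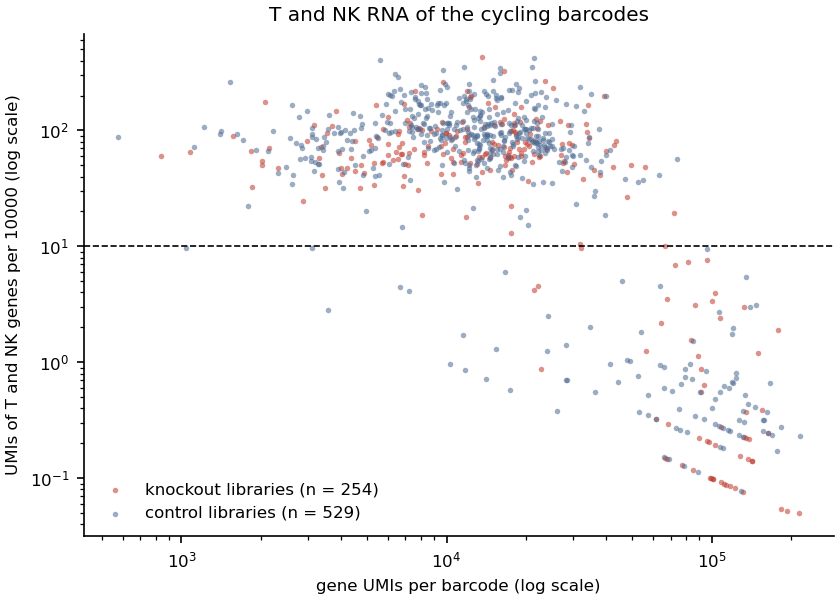
Each point is 1 of the 783 cycling barcodes, with its gene UMIs on a log x axis and its UMIs of T and NK genes per 10000 on a log y axis, in red for knockout and in blue for control libraries. The 631 barcodes above the dashed line at 10 form the T and NK RNA-rich cloud with a median of 12625 UMIs, and the 152 below it have a median of 95539.

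Among the RNA-rich members the 6 cycle genes were not equally frequent. Mki67, which encodes a coat protein of mitotic chromosomes, was found in 96.0% and Top2a, the topoisomerase that untangles sister chromatids, in 89.9%. Birc5 (survivin, of the chromosomal passenger complex) was found in 84.5%, the spindle protein Nusap1 in 76.1%, Ube2c, the ubiquitin-conjugating enzyme of the anaphase-promoting complex, in 71.0% and the kinetochore protein Cenpf in 70.2%. All 6 genes were present in 294 members, 5 in 91, 4 in 120 and 3 in 126. On the sparse side of the threshold, 234 RNA-rich barcodes had 2 of the 6 genes, a median of 6342.5 UMIs and a median of 4 of 30 S phase genes, beside 7655.5 UMIs and 10 S phase genes in barcodes with exactly 3. The median over all RNA-rich members was 18 S phase genes, and that of 3944 RNA-rich barcodes with none of the 6 cycle genes, called resting below, was 2.

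Promoters show what the cycle genes share beyond the choice, and 4 are given because they carry the 2 patterns that set the lists apart. The windows, of 300 bases from 250 before to 50 after the annotated start, are RefSeq sequence of build GRCm38.p6. They were searched on both strands for 3 motifs. The cell cycle genes homology region, which MuvB complexes bind, was spelled TTTGAA, with TTCGAA as the other spelling, and the box that NF-Y binds was spelled CCAAT. The E2F motif was spelled TTGGCGC, with TTCCCGC as another accepted spelling, TTCGCGC as the next, and finally TTGCCGC. Capitals mark every match, and neighbouring matches can share letters. Mki67 lies at chr7:135716330-135716629 on the minus strand, Ube2c at chr2:164769679-164769978 on the plus strand, Ccnb2, the gene of cyclin B2, at chr9:70421505-70421804 on the minus strand, and Mcm5, a subunit of the replicative helicase, at chr8:75109259-75109558 on the plus strand.
Mki67: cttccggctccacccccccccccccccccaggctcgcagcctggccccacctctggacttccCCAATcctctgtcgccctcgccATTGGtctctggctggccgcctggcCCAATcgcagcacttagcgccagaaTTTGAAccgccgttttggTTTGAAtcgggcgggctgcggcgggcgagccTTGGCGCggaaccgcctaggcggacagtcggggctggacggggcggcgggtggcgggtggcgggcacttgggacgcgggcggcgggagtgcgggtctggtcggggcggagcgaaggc
Ube2c: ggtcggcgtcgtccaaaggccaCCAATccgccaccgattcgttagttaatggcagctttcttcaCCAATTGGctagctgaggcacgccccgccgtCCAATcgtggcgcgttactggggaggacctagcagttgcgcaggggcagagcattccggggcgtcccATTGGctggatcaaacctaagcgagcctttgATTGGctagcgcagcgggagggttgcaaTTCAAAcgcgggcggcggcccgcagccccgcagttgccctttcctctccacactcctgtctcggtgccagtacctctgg
Ccnb2: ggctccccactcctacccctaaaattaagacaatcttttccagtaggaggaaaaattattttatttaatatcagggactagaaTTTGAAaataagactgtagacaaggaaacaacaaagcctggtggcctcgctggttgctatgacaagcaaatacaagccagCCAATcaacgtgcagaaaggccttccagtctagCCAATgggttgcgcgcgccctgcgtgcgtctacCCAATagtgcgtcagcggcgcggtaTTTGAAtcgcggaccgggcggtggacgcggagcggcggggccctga
Mcm5: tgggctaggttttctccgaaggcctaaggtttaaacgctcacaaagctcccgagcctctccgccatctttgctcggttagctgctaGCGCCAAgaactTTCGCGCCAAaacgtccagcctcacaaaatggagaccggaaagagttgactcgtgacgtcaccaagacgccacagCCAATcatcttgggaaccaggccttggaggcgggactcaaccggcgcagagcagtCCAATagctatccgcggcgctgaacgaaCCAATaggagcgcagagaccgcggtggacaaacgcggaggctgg
The Mki67, Ube2c and Ccnb2 windows join at least 1 homology region to at least 3 CCAAT boxes, and the Mcm5 window has 3 E2F matches, 3 CCAAT boxes and no homology region. Of the 29 genes of a G2 and mitosis list with a promoter in the table, 82.8% held the homology region, 79.3% CCAAT and 17.2% an E2F match. Of 23 matched S phase genes, 21.7% held the homology region, 65.2% CCAAT and 69.6% an E2F match. Over all 27025 promoters the shares were 19.4%, 37.9% and 9.69%. The homology region and CCAAT stood together in 69.0% of the mitotic promoters and in 7.70% of all promoters. The windows of Birc5 and Nusap1 held none of these letters. A match is a description of the sequence and not evidence that a factor bound there.

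All 5 lineage rules were met among the 631 RNA-rich members, and pooled over the libraries CD8 cells were the most frequent. A Cd3 gene with Cd8a or Cd8b1 and without Cd4 (Cd8-type) was found in 309, Ncr1 or Klrb1c without a Cd3 gene (NK-type) in 117, a Cd3 gene with Trdc (gamma delta-type) in 52, a Cd3 gene with Cd4 and neither Cd8 gene (Cd4-type) in 42, and a Cd3 gene with Foxp3 (Foxp3-type) in 16. No rule was met by 115 members and at least 2 rules by 20. Trdc was found in 85 of the 631, and those outside the gamma delta-type had no Cd3 gene and were NK-type. A Trdc UMI was thus not confined to the gamma delta-type. Control library 3 gave 199 of the 309 Cd8-type members. In control library 1 NK-type members outnumbered Cd8-type ones, 46 against 17. Members of the libraries numbered 2 had no Cd8a or Cd8b1 UMI.

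Cd8-type and NK-type shares differed more between the control libraries than between the genotypes. Cd8-type cells made up 50.6% and 45.9% of the RNA-rich members in knockout libraries 1 and 3, and 17.3% and 60.7% in control libraries 1 and 3. NK-type cells made up 15.3% and 10.1% in knockout libraries 1 and 3, and 46.9% and 12.2% in control libraries 1 and 3. Among these 4 libraries control library 1 was thus the one rich in dividing NK-type cells, and its 95% exact binomial interval for them, 36.8% to 57.3%, did not meet that of the other 3, while that of control library 3 overlapped both knockout libraries. Of resting barcodes, 7.77%, 83.9% and 15.5% were NK-type in knockout libraries 1, 2 and 3 and 40.7%, 78.3% and 14.9% in control libraries 1, 2 and 3, so that the libraries numbered 2 were the highest there. Gamma delta-type cells made up 9.41% and 12.8% in knockout libraries 1 and 3, and 11.2% and 5.49% in control libraries 1 and 3. Cd4-type cells made up 9.41% and 10.1% in knockout libraries 1 and 3, against 0 of 98 members in control library 1, which allows up to 3.69% by the exact interval, and 7.01% in control library 3. Foxp3-type cells numbered 5 of 85 and 0 of 109 in knockout libraries 1 and 3, and 1 of 98 and 10 of 328 in control libraries 1 and 3. In the libraries numbered 2, 2 of 4 members of the knockout and 5 of 7 of the control were NK-type.

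**Figure D2:**
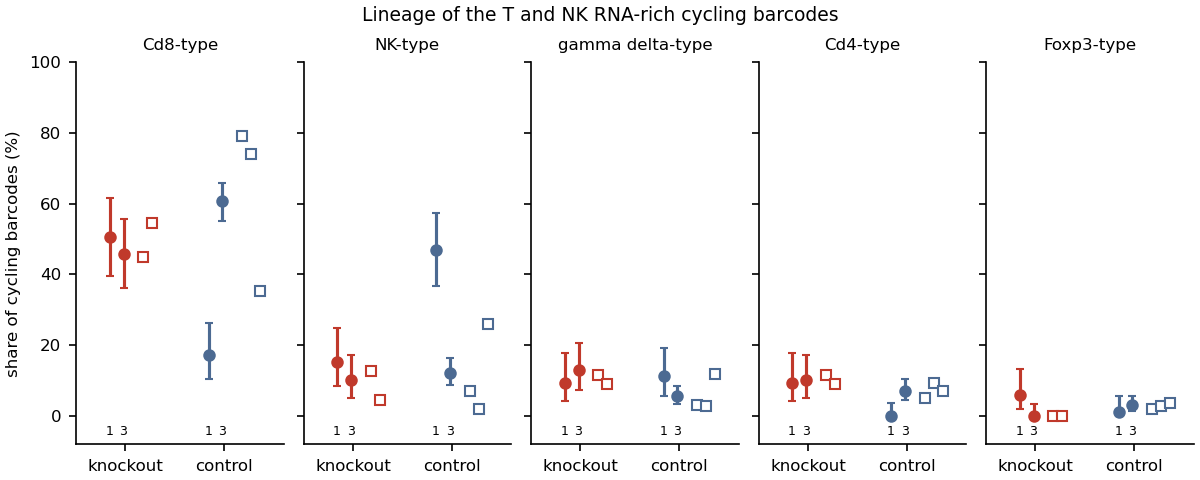
Share of the RNA-rich cycling barcodes (%, y axis) that met each lineage rule, in knockout (red) and control (blue) samples. Filled points are libraries 1 and 3 with 95% exact binomial intervals and open squares are the hashtagged mice of library 3; the 3 control mice range from 35.3% to 79.2% Cd8-type and from 1.85% to 25.9% NK-type.

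No lineage share passed a test between knockout and control, where 2 against 2 libraries cannot reach below an exact two-sided permutation p of 0.333. The difference of means was 9.22 percentage points for Cd8-type cells (p = 1, exact), -16.9 for NK-type cells (p = 0.667, exact), 2.77 for gamma delta-type cells (p = 0.667, exact) and 0.91 for Foxp3-type cells (p = 1, exact). It was 6.25 for Cd4-type cells, the lineage whose groups did not overlap, with the smallest p the design allows (0.333, exact). Without control library 1 the differences turned to -12.4 for Cd8-type, 0.50 for NK-type and -0.11 for Foxp3-type cells. Without control library 3 that of gamma delta-type cells was -0.10, and without knockout library 1 that of Foxp3-type cells was -2.03. The 3 hashtagged control mice alone held 79.2%, 74.1% and 35.3% Cd8-type members, so mice of the same genotype and pool also differed widely. The intervals cover counting error only.

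Dividing NK-type and Cd8-type cells stood apart in their levels of killing genes. Prf1, the gene of the pore-former perforin, stood in NK-type members at 754 and 773 UMIs per 1000000 UMIs of the barcodes named (CPM) in knockout libraries 1 and 3 and at 393 and 545 CPM in control libraries 1 and 3. In Cd8-type members Prf1 stood at 48.5 and 39.8 CPM in knockout libraries 1 and 3 and at 20.2 and 62.8 CPM in control libraries 1 and 3, lower in each library. Gzma, which encodes granzyme A, showed the same order, with 8313 and 7290 CPM in knockout and 6543 and 9388 CPM in control NK-type members, and 659 and 645 CPM in knockout and 1227 and 2058 CPM in control Cd8-type members. Gzmk, the granzyme of memory-type CD8 cells, had the opposite order: 60.0 and 98.7 CPM in knockout and 55.6 and 247 CPM in control Cd8-type members, beside 35.1 and 21.5 CPM in knockout and 19.2 and 12.2 CPM in control NK-type members. Pdcd1, the gene of the checkpoint receptor PD-1, had no UMI in the 110 NK-type members of these 4 libraries, and stood at 29.4 and 50.1 CPM in knockout and 15.2 and 44.4 CPM in control Cd8-type members. Gzmb, the gene of granzyme B, was closer between the lineages, at 1394 and 1109 CPM in knockout and 1382 and 1436 CPM in control NK-type members and at 908 and 498 CPM in knockout and 657 and 1003 CPM in control Cd8-type members. These are levels of 11 to 46 NK-type and 17 to 199 Cd8-type barcodes per library and were not tested. In them 3 UMIs, the smallest count read as a level, were 4.06 to 21.5 CPM in NK-type and 1.04 to 15.2 CPM in Cd8-type members. Gzmk in NK-type members of knockout library 3 and Pdcd1 in Cd8-type members of control library 1 lay at that floor.

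The share of T and NK lymphocytes that were cycling did not separate the genotypes. Among all T and NK barcodes it was 12.5%, 10.0% and 13.7% in knockout libraries 1, 2 and 3, and 18.2%, 4.22% and 12.1% in control libraries 1, 2 and 3. The knockout values lay inside the range of the control values. The difference of means was 0.52 percentage points, with an exact two-sided permutation p of 0.8, and 3 against 3 libraries cannot reach below 0.1. In RNA-rich barcodes the share was 11.5% (85 of 736), 10.0% (4 of 40) and 10.2% (109 of 1072) in knockout libraries and 17.2% (98 of 569), 4.22% and 10.1% (328 of 3262) in control libraries, a difference of 0.07 points with an exact permutation p of 0.9. The difference turned to -3.07 points without control library 2, to -0.41 points without knockout library 1 and to -0.15 points without control library 3. The shares depend on depth. For this the RNA-rich barcodes of at least 1000 UMIs were thinned to 1000 UMIs and the genes of the choice were read again. The shares were then 3.33%, 7.14% and 3.84% in knockout and 5.58%, 1.71% and 4.28% in control libraries. Shallower barcodes and those left without a T or NK UMI drop out, so the denominators are not those above. The summed level of the 6 cycle genes over all RNA-rich T and NK barcodes, which needs no threshold per barcode, was 790, 1005 and 770 CPM in knockout and 1386, 560 and 775 CPM in control libraries, with an exact permutation p of 0.9 for the difference of -52.2 CPM, which turned to 187 CPM without control library 1.

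Mice of the same pool varied widely. The 2 hashtagged knockout mice had 18.4% and 5.02% cycling RNA-rich barcodes, and the 3 control mice had 9.96%, 7.38% and 22.8%. The exact binomial intervals of the 2 knockout mice, 14.8% to 22.4% and 3.17% to 7.51%, did not overlap.

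**Figure D3:**
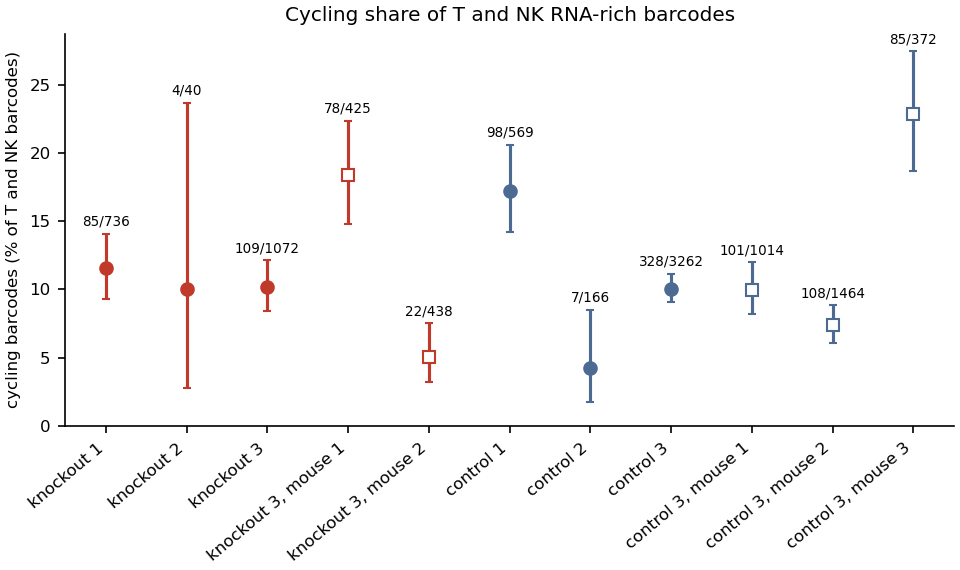
Cycling share of RNA-rich T and NK barcodes (%, y axis) in each knockout (red) and control (blue) library and in each hashtagged mouse of the libraries numbered 3, with 95% exact binomial intervals. Knockout libraries lie between 10.0% and 11.5% and control libraries between 4.22% and 17.2%, and the 3 control mice between 7.38% and 22.8%.

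In libraries 1 and 3 the cycling rate of Cd8-type cells spread less than that of NK-type cells, a difference in spread that was not tested. Of RNA-rich Cd8-type barcodes, 14.6% and 13.9% were cycling in knockout libraries 1 and 3, and 14.5% and 12.6% in control libraries 1 and 3. Of NK-type barcodes, 19.1%, 6.25% and 6.96% were cycling in knockout libraries 1, 2 and 3, and 19.2%, 3.85% and 9.03% in control libraries 1, 2 and 3. NK-type cells of both libraries numbered 1 were thus high and those of the other 4 libraries low, in both genotypes. These rates rest on 13 cycling NK-type barcodes in knockout library 1, 46 in control library 1 and 2 in knockout library 2. The rates of the libraries numbered 3 are averages over pooled mice, whose cycling shares varied widely. Cd4-type rates were 9.76% and 13.8% in knockout libraries 1 and 3, and 0 of 11 and 7.19% in control libraries 1 and 3, lower than the Cd8-type rate in each of the 4. The few Foxp3-type barcodes had 5 of 15 and 0 of 8 cycling in knockout libraries 1 and 3, and 1 of 3 and 10 of 54 in control libraries 1 and 3. None of the 6 pairs of lineages passed an exact sign-flip permutation test over libraries, with p adjusted over the 6 pairs between 0.6 and 1, and 4 libraries cannot go below 0.125, nor the 2 libraries with enough Foxp3-type barcodes below 0.5. Beside Cd4-type cells the Cd8-type rate was higher by 6.22 percentage points on average (4 of 4 libraries, unadjusted exact sign-flip p = 0.125). The 2 rates were nearly equal in knockout library 3, at 13.9% and 13.8%. The widest gap, in control library 1, rests on 11 Cd4-type barcodes.

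Set against resting T and NK barcodes of the same libraries, the RNA-rich members differed in more than the cell cycle. The difference is a description, since the choice made it, and log2 fold changes are cycling over resting from edgeR on UMIs summed per library (libraries 1 and 3 of each group, with library as a block). Of 10310 genes tested, 26.0% were called higher and 26.1% lower at an adjusted p under 0.05, and the median over all genes was -0.03. The median depth of the RNA-rich classes, 12625 UMIs in cycling and 3797.5 in resting barcodes, differs with the choice. The calls numbered 4960 where both classes were limited to barcodes of at least 3000 UMIs, against 5364 without that limit, and 4764 were the same genes. That limit is a floor and does not match the depths of the classes, so the part of depth in the calls was not tested.

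Replication and mitosis genes outside the choice were high throughout. All 34 tested G2 and mitosis genes were called higher, with a median of 4.90. Ccnb2 stood at 187 and 191 CPM in knockout and 204 and 199 CPM in control members, and at 1.03 and 1.31 CPM in knockout and 3.24 and 3.48 CPM in control resting barcodes, a log2 fold change of 6.37 ± 0.19 (SE). Its level in dividing cells was thus close in all 4 libraries, and each resting library was far below. All 30 S phase genes were called higher with a median of 2.69, among them Rrm2, the small subunit of ribonucleotide reductase, at 183 and 172 CPM in knockout and 163 and 180 CPM in control members. All 24 histone and chromatin genes were called higher with a median of 3.37, and H2ac8, a replication-dependent histone gene, changed by 6.56 ± 0.15. Near-identical histone copies can share reads, so single members of the family are uncertain. Among cyclins, E2F factors and their inhibitors, 17 of 24 tested were higher and 3 lower, with Foxm1 at 4.69 and E2f2 at 2.84.

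The 10 genes outside these lists with the largest positive changes, among those averaging at least 5 log2 CPM and of 1 sign in every library, were also of the dividing cell. H2ac4 (7.66) and H2ac10 (7.57) are histone genes, Pclaf (7.26) encodes a partner of the replication clamp, and Ska1 (7.29), Kif14 (6.55), Sgo1 (6.51), Aspm (6.49), Nuf2 (6.14) and Shcbp1 (6.11) act at the spindle, kinetochore, centromere or midbody. Mxd3 (6.95) is the MXD member that is made in S phase. Ska1, Mxd3, Kif14 and Aspm had no UMI in some resting libraries, so their fold changes rest on few counts. Pclaf stood at 697 and 638 CPM in knockout and 819 and 744 CPM in control members, against 1.71 and 4.58 CPM in knockout and 3.24 and 7.28 CPM in control resting barcodes.

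Biosynthesis and energy genes were moderately higher. Of 20 tested nucleotide and one-carbon genes 17 were called higher (median 1.11), led by thymidine kinase Tk1 (4.03) and the serine synthesis enzyme Phgdh (1.85). Of 23 MYC and ribosome biogenesis genes 20 were called higher (median 0.77), such as the snoRNP subunits Nop58 (1.21) and Nhp2 (1.25). Of 21 oxidative phosphorylation genes 18 were called higher (median 0.66), including Atp5b (0.97) and Sdhb (1.01). Glycolysis and hypoxia genes split, with 13 of 20 higher and 3 lower (median 0.63). Gapdh (1.52) and Tpi1 (1.76) were among the higher ones. DNA repair genes were called higher in 14 of 18 (median 1.49), with the homologous recombination genes Brca1 at 4.11 and Rad51ap1 at 4.88.

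**Figure D4:**
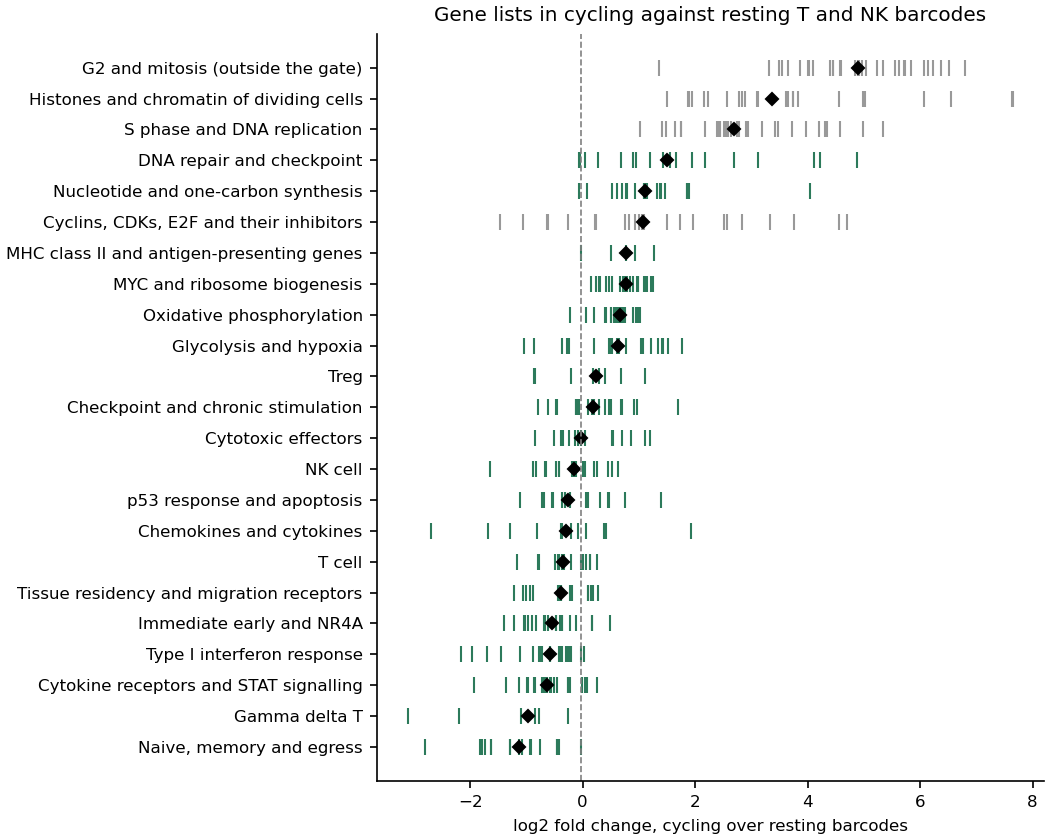
Log2 fold change of cycling over resting RNA-rich barcodes (x axis) for the tested genes of the cell cycle and lymphocyte function lists (y axis), with a tick per gene, grey for cell cycle lists and green for others, a diamond at the list median and a dashed line at the median of all genes, -0.03. Of the lists shown, mitosis genes have the highest median, 4.90, and naive, memory and egress genes the lowest, -1.14.

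Genes of quiescent, recirculating lymphocytes had the lowest median of the lists of lymphocyte function. Of 17 naive, memory and egress genes 16 were called lower (median -1.14). Il7r, the IL-7 receptor chain that keeps resting T cells alive, stood at 37.2 and 59.8 CPM in knockout and 26.7 and 16.4 CPM in control members, against 245 and 251 CPM in knockout and 179 and 237 CPM in control resting barcodes, a change of -2.81 ± 0.19. Bach2, a repressor that holds lymphocytes back from effector fate, changed by -1.74 ± 0.11. Both were lower in every library. Cytokine receptor and STAT genes were called lower in 16 of 23 (median -0.63), with Il6ra at -1.93 and Stat4 at -0.98. Type I interferon genes were lower in 12 of 20 (median -0.58), with Ifit1 at -1.96 and Ifit3 at -1.70. Immediate early genes were lower in 14 of 20 (median -0.55), with the phosphatase Dusp1 at -1.23 and the antiproliferative Btg2 at -1.05. Residency and migration receptors were lower in 9 of 17 (median -0.39), among them Cxcr6 (-1.07) and Itga1 (-0.88).

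Effector genes of the RNA-rich barcodes did not move as a block. Cytotoxic genes were called higher in 6 of 16 and lower in 3 (median -0.03), with Gzmk at 1.20 and Serpinb6b, a serpin family member, at 0.86. Chemokines and cytokines were higher in 3 of 12 and lower in 6 (median -0.29). Ccl5, a chemokine of memory T cells and NK cells, stood at 1381 and 1747 CPM in knockout and 1551 and 4778 CPM in control members, against 5285 and 5044 CPM in knockout and 7392 and 11709 CPM in control resting barcodes. Within NK-type barcodes alone Ccl5 stood at 925 and 1331 CPM in knockout and 1443 and 1500 CPM in control members, against 8918 and 9131 CPM in knockout and 8786 and 7524 CPM in control resting barcodes of libraries 1 and 3. Checkpoint genes were higher in 5 of 20 and lower in 4 (median 0.18), with Havcr2, which encodes TIM-3, at 1.70 and Tnfrsf9, which encodes 4-1BB, at 0.69. T cell genes were lower in 9 of 16 (median -0.34) and NK genes lower in 7 and higher in 3 of 19 (median -0.16). Without the genes of the choice, T cell genes were lower in 6 of 13 (median -0.21). NK genes without them were lower in 6 and higher in 3 of 17 (median -0.16). Klra8, a Ly49 receptor of mature NK cells, was at -1.65. Gamma delta genes were lower in 5 of 6 tested (median -0.97), regulatory T cell genes higher in 3 and lower in 2 of 8 (median 0.24), and p53 and apoptosis genes higher in 5 and lower in 4 of 16 (median -0.27). The MHC class II list was higher in 3 of 5 (median 0.78), with H2-Ab1 at 1.28. Its summed level was 188 and 111 CPM in knockout and 121 and 636 CPM in control members of libraries 1 and 3. In resting barcodes it was 83.5 and 185 CPM in knockout and 60.7 and 376 CPM in control libraries, so knockout library 3 went the other way. Over all members these counts were different, with 0 higher and 9 lower of 16 cytotoxic genes (median -1.11), 0 higher and 10 lower of 12 chemokines and cytokines (median -1.51) and 0 higher and 11 lower of 19 checkpoint genes (median -0.95). Of all 11494 genes tested over all members, 33.5% were called higher and 31.8% lower.

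RNA of other cell types moved with this contrast. All 18 tested hepatocyte genes and all 9 endothelial genes were called lower in cycling barcodes, with medians of -1.10 each. The summed level of the 20 hepatocyte genes was 49.6 and 749 CPM in knockout and 394 and 917 CPM in control members, against 126 and 2169 CPM in knockout and 576 and 2367 CPM in control resting barcodes of libraries 1 and 3. Of the 10 genes with the largest negative changes outside the cycle lists, S100a9 (-3.43), Serpina1e (-2.51) and Hbb-bs (-2.31) are genes of neutrophils, hepatocytes and red cells. The other 7 were Tcp11l2, Il7r, the growth factor receptor Igf1r (-2.62), Slfn5, a Schlafen family member, Gm4956, the histone demethylase Kdm5b (-2.35) and the polarity gene Patj. Tcp11l2 stood at 7.17 and 11.4 CPM in knockout and 3.44 and 5.52 CPM in control members, against 54.4 and 51.1 CPM in knockout and 37.2 and 54.6 CPM in control resting barcodes. The part of RNA from other cells in these differences was not tested. With all 783 members in place of the 631, 65.3% of 11494 genes were called, the median of hepatocyte genes was 2.25 instead of -1.10 and that of T cell genes -1.48 instead of -0.34.

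No gene passed the test between knockout and control members at an adjusted p under 0.05. Over all 783 members edgeR's quasi-likelihood test on libraries 1 and 3 of each group called 0 of 12274 genes, a share of 0%, with 109 at an unadjusted p under 0.05 and 3 by DESeq2. In the RNA-rich members it called 0 of 9264, with 261 at an unadjusted p under 0.05 and 0 by DESeq2. In NK-type members alone it called 0 of 5653 (219 at an unadjusted p under 0.05), and in Cd8-type members alone 0 of 7401 (277). With 1 RNA-rich library left out the calls numbered 2 without knockout library 1, 3 without knockout library 3, 2 without control library 1 and 1 without control library 3. Counts were also simulated for the RNA-rich design, with a fixed dispersion of 0.05 and the same mean profile in every library. There 41.1% of genes with a log2 change of 1.5 and 4.65% of those with a change of 1 were recovered. Even in that setting most changes of 1 were missed with 2 against 2 libraries. The real libraries of a genotype also differed in lineage makeup, so these shares are not the power of the real test. The following values are therefore given as measured, and for the RNA-rich members each adjusted p from edgeR was 0.999.

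Nr4a1 stood at 97.2 and 30.6 CPM in knockout and 101 and 44.2 CPM in control libraries 1 and 3, a log2 fold change of -0.17 ± 0.58 (SE). The libraries numbered 1 were high and those numbered 3 low in either genotype, and the groups overlapped. The change turned to 0.41 without knockout library 3 and to 0.46 without control library 1. In NK-type members, the cells in which Cre is made, it stood at 123 and 50.1 CPM in knockout and 133 and 28.4 CPM in control libraries, a change of 0.23. Nr4a2 stood at 96.5 and 49.8 CPM in knockout and 114 and 96.1 CPM in control libraries (-0.55 ± 0.31), and Nr4a3 at 11.7 and 10.7 CPM in knockout and 26.7 and 11.3 CPM in control libraries (-0.69 ± 0.49). The groups overlapped for both genes. Over all 783 members the changes were -0.59 for Nr4a1, -0.87 for Nr4a2 and -1.40 for Nr4a3, with an edgeR adjusted p of 1.00 for each, and that of Nr4a1 turned to 0.18 without knockout library 3 and to 0.58 without control library 1.

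Ncr1, the activating receptor NKp46 whose locus carries Cre, stood at 38.5 and 45.5 CPM in knockout and 379 and 110 CPM in control members. The fitted log2 change was -2.54, and both knockout libraries lay below both control libraries. Within NK-type members it stood at 149 and 386 CPM in knockout and 573 and 448 CPM in control libraries. Within NK-type resting barcodes it stood at 224, 595 and 287 CPM in knockout libraries 1, 2 and 3 and at 1045, 784 and 718 CPM in control libraries, again without overlap. Klrb1c, the other NK gene of the choice, stood at 425 and 465 CPM in knockout and 339 and 424 CPM in control NK-type members. Ncr1 is also a gene by which members and NK-type barcodes were chosen, so these levels are a description, and its part in the NK-type shares was not tested.

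The 18 tested NK genes, which include Ncr1 and Klrb1c of the choice, all had negative changes with a median of -0.89, and the 16 without them had a median of -0.89, beside -0.01 for all genes. None of the 16 passed the test. Apart from Tyrobp, Fcer1g and Fcgr3, the genes of this list also counted toward the RNA-rich restriction, so their levels here are a description. Gzma stood at 1776 and 2278 CPM in knockout and 4364 and 3345 CPM in control members (-0.96 ± 0.20), and Itgax, which encodes CD11c, at 18.3 and 26.3 CPM in knockout and 55.9 and 44.2 CPM in control members. Cytotoxic genes had a median of -0.42 with 14 of 16 negative, among them Fasl at -0.95 and, from the chemokine list, Ccl3 at -1.18. The summed level of the NK list was 4012 and 4476 CPM in knockout and 9869 and 5863 CPM in control members, and the NK-type share was 15.3% and 10.1% in knockout and 46.9% and 12.2% in control members. Among these 4 libraries both were highest in control library 1, and the other 3 did not stand in the same order. In the libraries numbered 2 the NK list was higher still, at 14633 CPM in the knockout and 12727 CPM in the control. There 2 of 4 knockout and 5 of 7 control members were NK-type. The part of the share in the levels was not tested. Within NK-type members alone Gzma stood higher in knockout library 1 than in control library 1 and lower in knockout library 3 than in control library 3, at the values given above. There Prf1 stood higher in both knockout libraries than in both control libraries, and Gzmb overlapped between the groups. Within Cd8-type members Gzma stood lower in both knockout libraries than in both control libraries, and Prf1 and Gzmb overlapped. These orders were not tested.

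The genes with the smallest p-values were led by Dapl1, a gene of naive and memory-like CD8 T cells. It stood at 78.9 and 76.8 CPM in knockout and 26.7 and 21.3 CPM in control members (1.69 ± 0.21). Within Cd8-type members it stood at 144 and 153 CPM in knockout and 157 and 35.4 CPM in control libraries, so that control library 1 was as high as the knockouts, and it had no UMI in NK-type members. Nsg2, a neuronal vesicle gene also found in T cells, stood at 28.7 and 30.6 CPM in knockout and 6.02 and 8.39 CPM in control members (1.91 ± 0.31). Rap1gap2, a regulator of the GTPase Rap1, stood at 60.0 and 51.2 CPM in knockout and 124 and 110 CPM in control members (-1.11 ± 0.19). Dscam (-2.20), H2bc24 (-1.10), Cmah (1.02) and Tasp1 (1.01) completed the 10 with Gzma, Itgax and Ncr1, which the choice used. In all 783 members the 10 smallest p-values belonged to other genes, among them Spp1, the gene of osteopontin, at -2.98, Grb10 at 1.41 and Phlda2 at 1.59, with Map1b, Col25a1, Plagl1, Gm13844, Gm6135, Trp53cor1 and Gm1673.

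The S phase list lay close to the median of all genes, -0.01. S phase genes had a median of -0.04 with 12 of 30 positive, G2 and mitosis genes -0.22 with 1 of 34 positive, and histone and chromatin genes -0.26 with 0 of 24 positive. H2az1, a histone variant of dividing cells, had a change of -0.38. MYC and ribosome biogenesis genes had a median of 0.34 with 23 of 23 positive, such as the nucleolar genes Ncl at 0.47 and Fbl at 0.50, and glycolysis genes 0.22 with 20 of 20 positive. The summed level of the MYC list was 4963 and 5738 CPM in knockout and 3796 and 4109 CPM in control libraries 1 and 3. In the libraries numbered 2 (4 and 7 members) it was 3418 CPM in knockout and 5927 CPM in control, the opposite order. The glycolysis list there was also lower in the knockout, at 4618 CPM against 4983 CPM in the control. Naive, memory and egress genes had a median of 0.37 with 13 of 17 positive, with Satb1 at 0.73 and Il7r at 1.21, and Cdkn1a, the p21 inhibitor of CDKs, was at 0.73. None of these genes passed the test, and genes of a list share their libraries and are not replicates. The other lists had medians of 0.63 for regulatory T cells (8 tested), 0.54 for gamma delta T cells (4), 0.26 for nucleotide synthesis (20), 0.14 for interferon genes (19) and 0.08 for T cells (16). The median was 0.07 for p53 genes (15), 0.00 for DNA repair (18), -0.03 for cytokine receptors (23), -0.05 for oxidative phosphorylation (21) and -0.10 for cyclins and their inhibitors (25). It was -0.16 for checkpoint genes (19), -0.24 for immediate early genes (20), -0.32 for chemokines (10), -0.34 for residency receptors (16) and -1.39 for MHC class II (5). Over all 783 members several medians lay elsewhere, among them 0.39 for MHC class II (6 of 7 positive), -0.17 for interferon genes, -0.05 for naive, memory and egress genes (8 of 17 positive) and -0.12 for p53 genes. They were -0.11 for T cells, 0.11 for oxidative phosphorylation, -0.41 for G2 and mitosis, -0.98 for cytotoxic genes, -0.59 for checkpoint genes and -1.43 for NK genes, beside 0.01 for all genes.

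**Figure D5:**
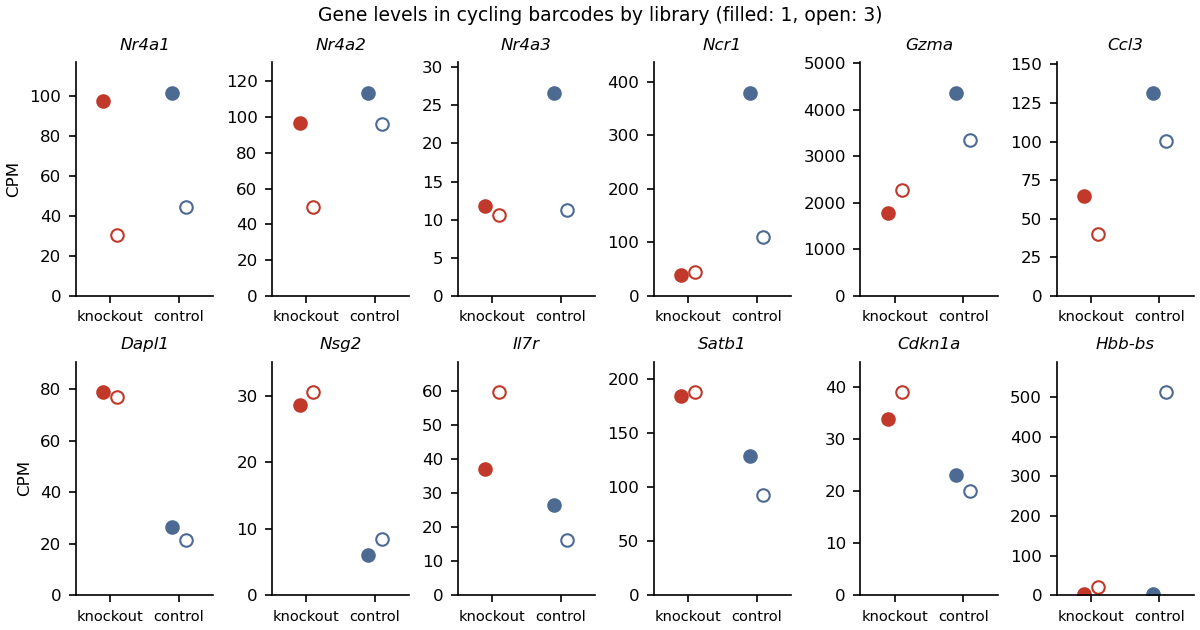
Level (CPM, y axis from 0) of 12 genes in the RNA-rich cycling barcodes of knockout (red) and control (blue) libraries, with library 1 filled and library 3 open. Nr4a1 overlaps between the groups, Dapl1 lies at 78.9 and 76.8 CPM in knockout and 26.7 and 21.3 CPM in control libraries, and Hbb-bs is high in control library 3 alone.

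Globin and MHC class II RNA was highest in control library 3. The summed level of erythroid genes was 188 and 119 CPM in knockout and 286 and 1205 CPM in control members. Hbb-bs, a beta globin gene, stood at 1.96 and 20.6 CPM in knockout and 2.58 and 513 CPM in control members, a change of -4.64 ± 1.85 that turned to 2.07 without control library 3. Cd74, the invariant chain of MHC class II, stood at 50.9 and 35.6 CPM in knockout and 44.7 and 261 CPM in control members (-1.93 ± 0.76), with control library 3 alone standing out. All 18 tested hepatocyte genes had negative changes (median -1.20), Serpina1a among them at -2.20, while their median over all 783 members was 0.54. Of the other background lists, the summed levels in knockout libraries 1 and 3 and control libraries 1 and 3 were 371 and 415 CPM against 352 and 566 CPM for macrophage and monocyte genes and 46.3 and 397 CPM against 108 and 305 CPM for endothelial genes. They were 112 and 92.5 CPM against 73.1 and 115 CPM for B cell genes, 232 and 249 CPM against 244 and 206 CPM for dendritic cell genes and 1.30 and 24.9 CPM against 4.30 and 6.55 CPM for neutrophil genes. In knockout libraries 1 and 3 and control libraries 1 and 3 no UMI was found for 9, 3, 8 and 4 of the 10 neutrophil genes and for 8, 4, 8 and 2 of the 12 macrophage and monocyte genes, a list without Lyz2 and C1qa, which the choice set to 0. Their part in the knockout values was not tested.

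Whether the knockout difference itself changed between cycling and resting cells was tested as an interaction. Over all members edgeR called 0 of 11494 genes, a share of 0%, with 161 at an unadjusted p under 0.05 and 3 by DESeq2. In RNA-rich barcodes it called 3 of 10310, a share of 0.0291%, with 1 higher (0.00970%) and 2 lower (0.0194%), and DESeq2 called 0. Hba-a2 and Hbb-bs, both globin genes, had interactions of -4.69 ± 0.49 and -3.87 ± 0.44 with edgeR adjusted p of 4.71e-06 and 1.40e-05, and Ebf1, a B cell factor, of 4.53 ± 0.68 with an adjusted p of 0.0016. Hba-a2 stood at 0.652 and 4.98 CPM in knockout and 1.72 and 219 CPM in control members, against 0.684 and 300 CPM in knockout and 1.62 and 454 CPM in control resting barcodes. Both globin genes were thus at the level of a few UMIs in the libraries numbered 1, and with knockout library 3 left out the Hbb-bs interaction was 0.54. Ebf1 stood at 11.7 and 12.8 CPM in knockout members, at no UMI in control library 1, where 3 UMIs would be 2.58 CPM, and at 6.14 CPM in control library 3, against 0.342 and 7.53 CPM in knockout and 2.43 and 43.9 CPM in control resting barcodes. No T cell or NK gene was among the calls. Leaving out 1 library gave 22 calls without knockout library 1, 13 without knockout library 3, 7 without control library 1 and 3, none of them these genes, without control library 3. With the mice as units, 0 genes were called (323 at an unadjusted p under 0.05).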

How the data were processed

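Droplet libraries (10x 3′ v3.1) of dissociated tumour-bearing liver were analysed from UMI counts per gene and barcode, which were deposited by the authors without normalization. Per the file headers they were made with Cell Ranger 7.0.1 (libraries 1 and 2) and 9.0.1 (libraries 3), and the submitters' processing notes name GRCm39. The members and gene lists were chosen with earlier results of these data known. Members were found by the 14 genes given in the report, after barcodes under 500 UMIs, under 300 genes or over 20% mitochondrial UMIs had been dropped. No doublet caller was run; hashtag multiplets in the libraries numbered 3 (12 of 437 RNA-rich cycling and 63 of 2878 RNA-rich resting barcodes) were left out as an alternative. No per-sample column was left unused (0).

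UMIs were summed per library and class for libraries with at least 10 members, which were libraries 1 and 3 of each group, and tested with edgeR 4.0.16 (R 4.3.3, TMM, filterByExpr, quasi-likelihood F test, Benjamini-Hochberg adjustment, threshold 0.05), with DESeq2 1.42.0 as an alternative. SE was obtained from the size of the log2 fold change and the F statistic. Levels are CPM of a class's summed UMIs. The smallest count read as a level, 3 UMIs, was 0.614 to 2.58 CPM in the RNA-rich members of these 4 libraries. By lineage it was more CPM, as given with the killing genes. Shares were compared over libraries by exact permutation, with 95% Clopper-Pearson intervals (scipy 1.17.1). Named genes were Nr4a1, Nr4a2 and Nr4a3, the 10 smallest p-values (knockout) or the 10 largest changes per direction (cycling, at least 5 log2 CPM), interaction calls, and members of each list among the 2 with the smallest p. Other genes named with levels by lineage were chosen after their values were seen. The scripts were tested on simulated counts. Alternatives covered depth, the gene thresholds, normalization, count filters, units, lineages and left-out libraries.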

Additional observations from a re-analysis of the deposited data

Results flagged for a closer look

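In the RNA-rich barcodes 3 genes had a knockout difference that was not the same in cycling and in resting lymphocytes, by edgeR's interaction term on libraries 1 and 3 of each group. Hba-a2, an alpha globin gene, had an interaction of -4.69 (log2, cycling minus resting). Hbb-bs, a beta globin gene, had an interaction of -3.87. Ebf1, a transcription factor of B cells, had an interaction of 4.53. None of these is a gene of T or NK cells, and DESeq2 called 0 genes. No group of 4 or more units held a value beyond Dixon's limit.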

How the results depend on the processing

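Of 2229 values under alternatives, 2112 kept their direction and their side of the threshold. The cause of the other changes was not tested. Depth limits the libraries numbered 2 (4 and 7 members), which entered no gene test.

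With mice as units, the knockout-minus-control difference in cycling share was -0.47 points over all members and -1.09 over RNA-rich ones, and without both libraries numbered 2 it was -2.10 and -2.78. With mice as units the cycle gene difference over all T and NK barcodes was 11.2 CPM. Cd8-type differences were -2.78 (all) and -1.48 (RNA-rich) points with mice as units and -0.32 and -0.72 after thinning to 1000 UMIs. Foxp3-type differences were -0.40 and -0.37 with mice and -0.47 and -0.51 after thinning. The rate of Cd8-type minus NK-type barcodes was 0.30 (all members) at 2 of 6 cycle genes, and in RNA-rich barcodes -0.61 at 4 of 6 and -1.51 after thinning.

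Knockout calls numbered 61 (all) and 86 (RNA-rich) with no filter on low counts, and 3 (all) with DESeq2. Interaction calls numbered 80 (all) and 15 (RNA-rich) with no filter and 3 (all) and 0 (RNA-rich) with DESeq2. In RNA-rich barcodes they numbered 1 at 5 members per library, 1 at 4 of 6 cycle genes and 0 with mice as units. Over all members the interaction gave 0 calls, against 3 in RNA-rich barcodes. Cycling against resting gave 4016 calls in Cd8-type and 3379 in NK-type barcodes of all members, and 1782 in RNA-rich NK-type barcodes. Nr4a1 in RNA-rich members had log2 changes of 0.035 at 4 of 6 cycle genes, 0.050 with mice as units, 0.046 in Cd3-positive and 0.23 in NK-type members, and Nr4a3 in NK-type members had a change of 0.035.

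Leaving out 1 library at a time moved the difference in cycling share between -3.12 and 3.86 (all) and between -3.07 and 3.44 (RNA-rich), and the cycle gene difference between -179 and 198 CPM (all) and between -226 and 187 CPM (RNA-rich). Cd8-type differences ranged from -9.32 to 26.8 (all) and from -12.4 to 30.9 (RNA-rich), Foxp3-type from -1.67 to 3.65 and from -2.03 to 3.85, gamma delta-type from -1.10 to 4.71 and from -0.10 to 5.64, and NK-type from -34.2 to 0.50 (RNA-rich). Knockout calls ranged from 0 to 3 (all) and 1 to 3 (RNA-rich), and interaction calls from 0 to 101 (all) and 3 to 22 (RNA-rich). In RNA-rich members Nr4a1 ranged from -1.22 to 0.46 (-2.16 to 0.58 over all members), Hbb-bs from -7.13 to 2.07, and the Hbb-bs interaction from -4.12 to 0.54.

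Libraries share replicate numbers, which the labels do not tie to a shared animal or day. The deposited names of same-numbered libraries carry a common code whose meaning is not given in the sources used here, so a shared run cannot be told apart from a shared number. The deviations of same-numbered libraries from their group means correlated at 0.59 (all) and 0.45 (RNA-rich). A block for the number gave 5 calls, all lower (1779 at an unadjusted p under 0.05), over all members and 0 in RNA-rich members; with mice as units and the block, 3 genes were called in RNA-rich members. The blocked differences in cycling share were 0.52 points (all) and 0.07 (RNA-rich), with exact p of 0.75 each. The minimum of 20 members kept the same libraries as that of 10, and Foxp3-type pairs gave no value after thinning.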
